A study of Mus musculus with 6 samples.

Results

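The dual-specificity MAP kinase phosphatases are the enzymes that switch off the MAP kinases ERK, JNK and p38, and 10 genes of the family were taken by symbol, namely Dusp1, Dusp2, Dusp4, Dusp6, Dusp7, Dusp8, Dusp9, Dusp10, Dusp14 and Dusp16. All probe sets that the platform annotation pairs with one of these symbols were used. They came to 14 of the 22626 probe sets and to 9 of the 12393 genes named on the arrays. Dusp4 had no probe set under its symbol in the table used and was not analysed here. RNA was measured from the suprachiasmatic nucleus (SCN) of adult male C57BL/6 mice of 2 to 4 months kept in a 14:10 light/dark cycle. One group received a light pulse of 2400 lux for 30 minutes from 1 hour after lights off, and the other a sham light pulse in darkness at the same time. Tissue was taken when the pulse ended, 1.5 hours into the dark phase, and each group had 3 Affymetrix Mouse 430A 2.0 arrays. Each array held amplified RNA of 18 laser-captured sections pooled from 3 mice. Whether the pools shared mice is not given in the sources used here, so the p-values refer to the spread among pools, part of which may be technical.

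A MAP kinase is active while a threonine and a tyrosine in its activation loop carry phosphate, and these phosphatases remove both. In the SCN, light at night reaches the nucleus of the cell through ERK, which leads to phosphorylation of CREB, the factor that binds the cAMP response element (CRE). The family falls into classes by location and substrate. Dusp1, Dusp2 and Dusp4 encode nuclear enzymes whose genes are known as early-response genes, and Dusp6, Dusp7 and Dusp9 encode cytoplasmic enzymes with a preference for ERK. Dusp8, Dusp10 and Dusp16 encode enzymes that act mainly on JNK and p38, and Dusp14 encodes a small enzyme without the amino-terminal kinase-binding domain of the others.

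Since the study asked whether genes that light induces share CREs, the bases upstream of the transcription start are shown for Dusp1, for Dusp8 and Dusp16, the other members with signals high enough to test, and for Dusp6, the cytoplasmic member nearest to that level. Each run has 250 bases that end at the base before the start annotated by RefSeq (GRCm38.p6). Capitals mark matches on either strand to the full CRE TGACGTCA, the CRE half-site TGACG, the TATA-like element CATAAAA or the E-box CACGTG. The windows lie at chr17:26508473-26508722, minus strand for Dusp1, at chr7:142095285-142095534, minus strand for Dusp8, at chr6:134792629-134792878, minus strand for Dusp16 and at chr10:99262981-99263230, plus strand for Dusp6.
Dusp1: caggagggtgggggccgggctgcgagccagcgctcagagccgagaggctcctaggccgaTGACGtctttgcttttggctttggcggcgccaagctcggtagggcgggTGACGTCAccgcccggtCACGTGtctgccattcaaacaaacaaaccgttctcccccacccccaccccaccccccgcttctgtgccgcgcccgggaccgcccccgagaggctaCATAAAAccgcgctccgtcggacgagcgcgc
Dusp8: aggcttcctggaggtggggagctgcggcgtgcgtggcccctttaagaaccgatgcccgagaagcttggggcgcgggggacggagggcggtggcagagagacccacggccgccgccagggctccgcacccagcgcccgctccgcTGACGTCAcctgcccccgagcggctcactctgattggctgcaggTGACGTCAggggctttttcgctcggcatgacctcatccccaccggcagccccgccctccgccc
Dusp16: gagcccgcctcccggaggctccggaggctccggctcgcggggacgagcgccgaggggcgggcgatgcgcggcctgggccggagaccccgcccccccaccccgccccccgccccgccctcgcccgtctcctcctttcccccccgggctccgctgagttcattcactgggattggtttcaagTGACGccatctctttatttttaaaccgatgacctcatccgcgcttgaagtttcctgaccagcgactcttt
Dusp6: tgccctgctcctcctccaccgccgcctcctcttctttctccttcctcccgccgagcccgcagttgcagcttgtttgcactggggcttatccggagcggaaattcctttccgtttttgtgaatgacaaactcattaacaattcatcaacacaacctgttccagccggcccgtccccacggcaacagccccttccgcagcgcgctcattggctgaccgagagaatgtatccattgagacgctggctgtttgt

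Promoters were matched for 8 of the 10 members, and 2 of these, Dusp1 and Dusp8, held a full CRE. The full CRE was found in the 250 upstream bases of 1.55% of the 32851 promoters in the RefSeq table. Dusp1 had 1 full CRE that began 143 bases before the start, and a further half-site at 191 bases. Dusp8 had 2 full CREs, at 107 and 63 bases. Dusp16 had a half-site at 70 bases, and Dusp2, Dusp6, Dusp7, Dusp10 and Dusp14 had none upstream of the start. The half-site, which the full CRE contains, was found upstream in 17.8% of all promoters. The TATA-like element, 31 bases before the start of Dusp1, was found in no other member and in 3.77% of all promoters. The study had already reported this variant for the mouse Dusp1 promoter, so its match there is no result of this search. The canonical TATAA and the CArG box, the element bound by serum response factor, were found upstream in none of the 8 members, against 22.8% and 1.47% of all promoters. An E-box lay 126 bases upstream of Dusp1 and 109 bases upstream of Dusp2, and 6.02% of all promoters held one. A match of letters is a description of the sequence, and binding was not measured. The study used another measure, CREs predicted over a longer stretch before the start codon and conserved among mammals. It reports such CREs for Dusp1, and these letter matches do not test its result.

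**Figure D1:**
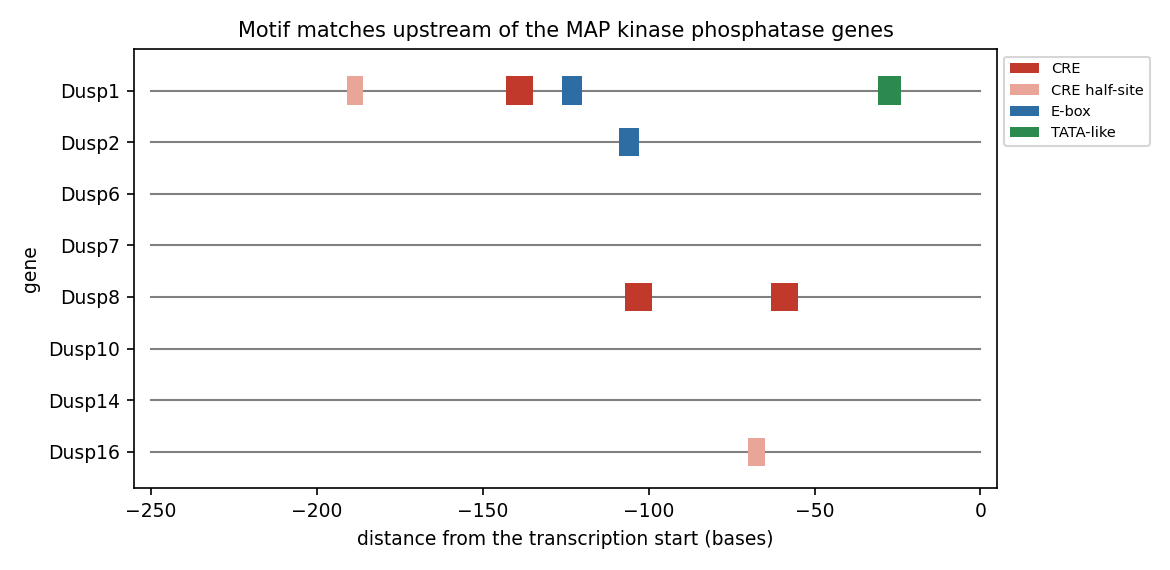
Matches to the CRE, the CRE half-site, the E-box and the TATA-like element in the 250 bases upstream of the RefSeq start, 1 line per member with a promoter in the table; the x axis is the distance from the start in bases. Half-sites inside a full CRE are not drawn. Dusp1 and Dusp8 carry the full CREs, at 143 bases and at 107 and 63 bases before the start.

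Arrays of the same group correlated at 0.893 to 0.935 in log2 signal, and arrays of different groups at 0.886 to 0.934. Probe sets were tested (kept) where their third-highest signal over the 6 arrays was at least 118.2, and called at an adjusted p under 0.05. The tissue label was checked against markers. Of 10 markers of SCN neurons 9 had a probe set and all 9 were kept, with 0 called and a median log2 fold change of 0.28. Their summed signal ran from 72470 to 91240 after the light pulse and from 57460 to 68440 after the sham light pulse. Without the neuropeptide gene Vip, a sum chosen after seeing the data, the groups overlapped, at 26650 to 29270 after the light pulse and 26240 to 27190 after the sham light pulse. The summed markers of endothelium and pericytes, cells that can also express Dusp1, ran from 2612 to 3120 after the light pulse and from 3489 to 5251 after the sham light pulse. Of this list 4 of 6 genes were kept, all with a log2 fold change below 0 and 0 called, and Flt1 had the smallest p, at -1.55 (standard error 0.48). Without Flt1, likewise chosen after seeing the data, the sums ran from 2453 to 3047 after the light pulse and from 3119 to 4745 after the sham light pulse. Summed signals of the 6 astrocyte markers, the 5 measured oligodendrocyte markers and the 6 microglia markers overlapped between the groups, with medians of 0.12, -0.01 and -0.02 on the log2 scale over their kept genes. Of 7 choroid plexus markers 4 were measured and 1, Ttr, was kept. Their summed signal ran from 136.6 to 110700 after the light pulse and from 193.6 to 364.9 after the sham light pulse. The highest sum was on light pulse replicate 3, where Ttr had 110323 against at most 295.6 on any other array. The part of these cells in the Dusp1 result was not tested.

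Dusp1, the early-response phosphatase of the cell nucleus, rose with the light pulse. Its MAS5 signals, a brightness in arbitrary units that can be compared between arrays for the same probe set, were 2708, 2611 and 3059 on the light pulse arrays, against 314.1, 759.9 and 361.5 on the sham light pulse arrays. The groups did not overlap, and the lowest light pulse signal was 3.44 times the highest sham light pulse signal. The light pulse arrays lay close together, with a highest-to-lowest ratio of 1.17, and the sham light pulse arrays had a ratio of 2.42, with replicate 2 above the others. The mean signal was 2793 ± 235.8 after the light pulse and 478.5 ± 244.8 after the sham light pulse (SD, n = 3 each). As a ratio of geometric means this was a 6.31-fold rise with a 95% confidence interval from 3.81 to 10.4, or a log2 fold change of 2.66 (standard error 0.34, adjusted p = 0.00434 from limma with Benjamini-Hochberg adjustment). Of the members, 1 was called higher and 0 lower, where limma called 0.0677% of all probe sets tested higher and 0% lower. The study had already reported the Dusp1 rise from these same arrays and by qPCR. The members were chosen with that known, so this count is no separate evidence. Dusp1 ranked 5 among these probe sets by its p-value and 18 by its log2 fold change. With 3 arrays in each group, the smallest p of an exact permutation test is 0.1. In bulk tissue, more cells that express a gene and more RNA per cell cannot be told apart.

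The Dusp1 call was kept when each array was left out in turn, with adjusted p from 0.000151 to 0.0396 and a fold from 5.32 to 8.27. The highest fold was that without sham light pulse replicate 2. Without the intensity trend in limma's estimate of spread the fold was the same and the adjusted p was 0.215, so that Dusp1 was not called. Without light pulse replicate 3, the array with the high choroid plexus signal, the Dusp1 fold was 6.02.

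Of the 9 measured members 3 passed the filter, namely Dusp1, Dusp8 and Dusp16, each with every array above that level. Dusp8 encodes a phosphatase of JNK and p38 that is known for its expression in brain. Its signals were 444.6, 421.7 and 338.5 on the light pulse arrays and 675.0, 308.5 and 409.1 on the sham light pulse arrays, so that the light pulse values lay inside the sham range. This gave a log2 fold change of -0.14 with a standard error of 0.35 (adjusted p = 0.974), or 0.907-fold with an interval from 0.537 to 1.53. Sham light pulse replicate 1 was the highest array, and without it the fold was 1.12. Dusp8, whose promoter holds the 2 full CREs shown above, had no change detectable at this precision, and its interval ends below the 6.31-fold of Dusp1. Whether these CREs meet the study's measure was not tested.

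Dusp16 encodes a phosphatase that shuttles between nucleus and cytoplasm and acts mainly on JNK. Its signals were 168.5, 476.3 and 581.1 on the light pulse arrays and 441.9, 503.5 and 687.9 on the sham light pulse arrays. The groups overlapped, and light pulse replicate 1 stood below the other 5 arrays. The log2 fold change of -0.57 (standard error 0.43, adjusted p = 0.960) was -0.02 without that array. As a fold it was 0.673 with an interval from 0.353 to 1.28, which also ends below the Dusp1 value.

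The cytoplasmic phosphatases of ERK were near the floor of the arrays or under the filter. Dusp6, a feedback inhibitor of ERK that growth factor signaling induces in many tissues, had a third-highest signal of 112.3, just below the level kept. It gave 136.7, 94.7 and 112.3 on the light pulse arrays and 84.4, 134.1 and 42.9 on the sham light pulse arrays. The groups overlapped, with the lowest value on sham light pulse replicate 3. In a fit of all 22626 probe sets, which called 0.0354% of them higher, Dusp6 differed by 0.53 on the log2 scale (standard error 0.69, adjusted p = 0.966), with a fold interval from 0.526 to 3.95. Dusp7, a close relative of Dusp6, was read by 3 probe sets, and none of its 18 signals passed 97.6. The Dusp7 probe set with the highest mean had 58.8, 57.9 and 21.8 after the light pulse and 44.8, 42.9 and 75.4 after the sham light pulse. This probe set, whose x_at suffix marks probes that may also bind other transcripts, differed by -0.32 on the log2 scale, against 1.48 and 1.27 at the other probe sets. The 3 did not share a direction, and the standard errors ran from 0.95 to 1.24. Dusp9, best known from placenta and embryo, also had 3 probe sets, with no signal above 45.6. One of them, also with the x_at suffix, had 6.5, 5.5 and 7.0 after the light pulse and 38.4, 13.5 and 32.0 after the sham light pulse. These groups did not overlap, at a log2 fold change of -2.02 (standard error 1.15, adjusted p = 0.963), while the other Dusp9 probe sets had -0.42 and 1.20.

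**Figure D2:**
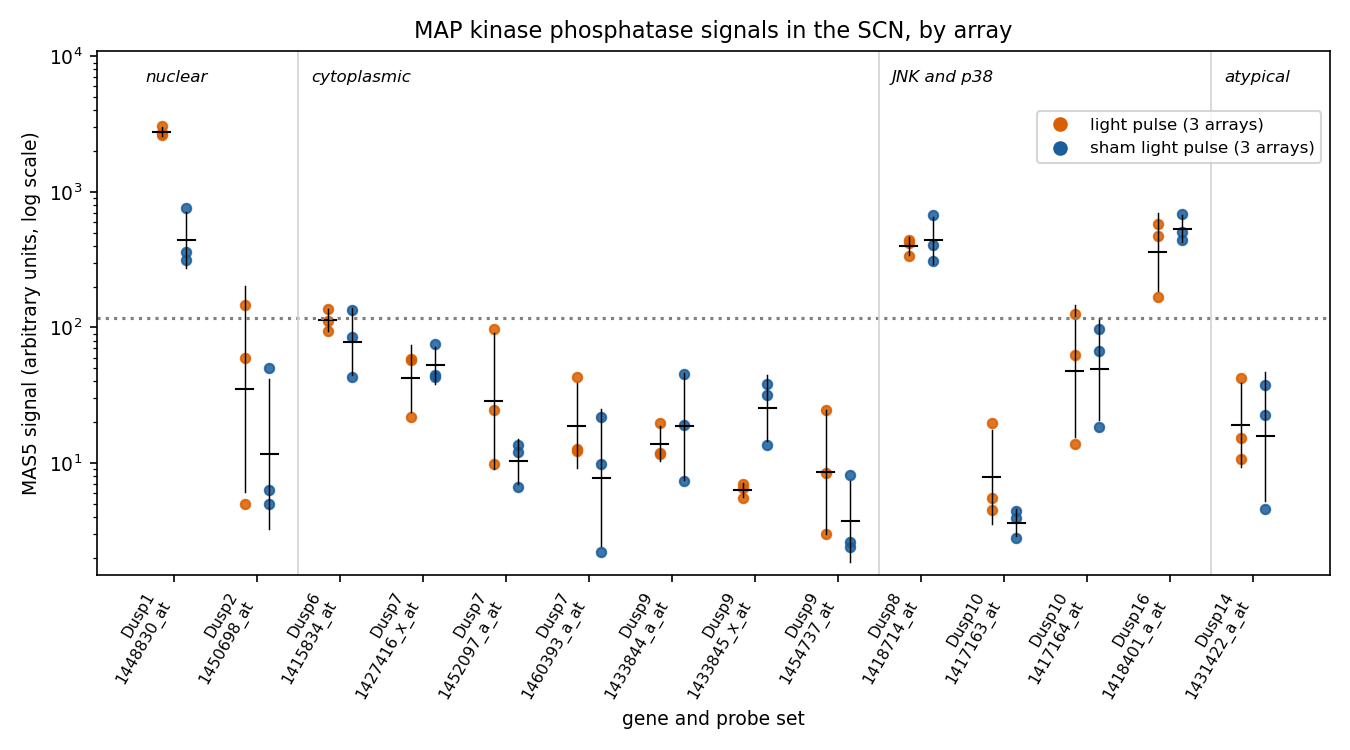
MAS5 signals (arbitrary units, log axis) of the 14 probe sets of the 9 measured members, with 1 point per array (3 light pulse and 3 sham light pulse arrays) and the members ordered by class on the x axis. Black ticks mark the mean log2 signal of a group and thin lines 1 SD on either side; the dotted line at 118.2 is the lowest third-highest signal that passed the filter. Dusp1 alone stands with all light pulse arrays far above the sham light pulse arrays and above the line.

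Dusp2 encodes the other nuclear enzyme measured, an early-response gene of lymphocytes. It gave 59.6, 5.0 and 145.2 after the light pulse and 50.2, 5.0 and 6.3 after the sham light pulse. Only light pulse replicate 3 reached the level kept, and the groups overlapped. The log2 fold change of 1.59 had a standard error of 1.41 (adjusted p = 0.963), with a fold interval from 0.390 to 23.3. With single arrays left out the Dusp2 fold ran from 1.48, without light pulse replicate 3, to 7.98, without light pulse replicate 2. The nuclear class was therefore represented above the filter by Dusp1 alone, and no cytoplasmic member passed it.

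Dusp10, a phosphatase of JNK and p38, was read by a pair of probe sets. The one with the higher mean had 126.3, 13.9 and 62.2 after the light pulse and 66.6, 97.0 and 18.5 after the sham light pulse, spread over about the same range in both groups (log2 fold change -0.04, standard error 1.06). The second had 5.5, 19.8 and 4.5 after the light pulse and 3.9, 4.4 and 2.8 after the sham light pulse. Its groups did not overlap, at a level below every array's median signal, and its log2 fold change of 1.12 (standard error 1.01) did not pass the test. Dusp14 had 10.7, 42.3 and 15.2 after the light pulse and 4.6, 22.6 and 37.6 after the sham light pulse, overlapping, and differed by 0.27 on the log2 scale (standard error 1.25).

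Over the 11 probe sets below the filter, 4 of 66 signals reached 118.2, and 8 of the 11 lay under the array's median signal on every array. Their log2 fold changes were above 0 for 7 of 11, with a median of 0.53 against 0.07 over all probe sets, and standard errors from 0.69 to 1.41. Among kept probe sets the middle 50% of standard errors ran from 0.30 to 0.48. The median signal over all probe sets was 99.4, 87.9 and 106 on light pulse replicates 1, 2 and 3. On sham light pulse replicates 1, 2 and 3 it was 85.1, 87.8 and 83.6. The part of this difference in the values of the low members was not tested. Over all 14 probe sets of the members, the groups did not overlap upward for 2, Dusp1 and the weaker Dusp10 probe set, and downward for 1, of Dusp9, where 6.68% and 3.64% of all probe sets did so. At an unadjusted p under 0.05, Dusp1 was the only member, where 2.11% of the kept probe sets were higher and 2.21% lower at that level. Signals this low do not show that a change was absent: the fold intervals of 6 of the 11 probe sets, of Dusp2, Dusp7, Dusp9, Dusp10 and Dusp14, include the 6.31-fold of Dusp1.

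**Figure D3:**
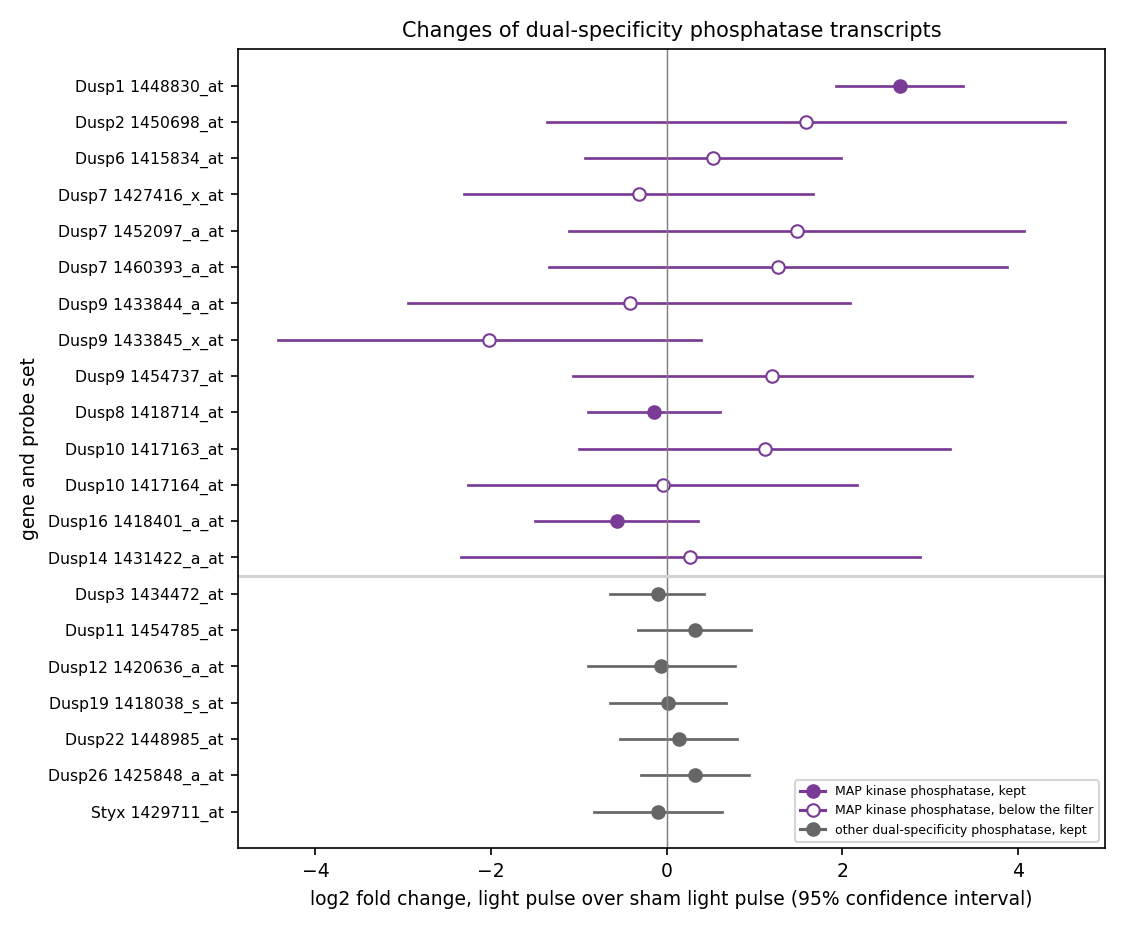
Log2 fold changes, light pulse over sham light pulse, with 95% confidence intervals from limma, for the 14 member probe sets (upper block; open circles are below the filter and come from the fit of all probe sets) and 7 other dual-specificity phosphatases that were kept (lower block). The interval of Dusp1, 1.93 to 3.38, is the only one that lies off 0.

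The change of Dusp1 was then set against that of each other member within the same arrays, as the log2 Dusp1 signal minus the log2 signal of the other gene's probe set with the highest mean. Against Dusp8 this value was 2.80 ± 0.32 on the light pulse arrays and 0.01 ± 1.21 on the sham light pulse arrays (SD, n = 3 each), so that the log2 fold changes differed by 2.80. Against Dusp16 they differed by 3.23 and against Dusp6 by 2.13. In each of these comparisons, and against Dusp7, Dusp9 and Dusp10, the light pulse values lay above all sham values (exact permutation test, two-sided, p = 0.1, which is the smallest that 3 against 3 arrays allow, and 0.133 adjusted over the 8 comparisons). Against Dusp14 the values overlapped at a difference of 2.38 (exact p = 0.2). Against Dusp2, the other nuclear member, the difference was 1.07 (exact p = 0.6), and it ran from -0.29 to 2.07 when single arrays were left out. None of the 8 comparisons could pass the threshold in this design. The probe sets of Dusp2, Dusp6, Dusp7, Dusp9, Dusp10 and Dusp14 lay below the filter, most of their signals near the floor of the arrays, and only the differences from Dusp8 and Dusp16 set Dusp1 beside another member that was kept. Dusp1 did not overlap between the groups by itself, so the separation in these values is not separate evidence. The Dusp7 value rests on the x_at probe set.

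The rest of the MAP kinase pathway was read through lists of its kinases, targets and inhibitors, in each of which limma called 0 genes. Over all probe sets tested it called 0.0677% higher and 0% lower. Of 15 other dual-specificity phosphatases, 10 had a probe set and 7 were kept, with log2 fold changes from -0.10 to 0.32 and a median of 0.01, where the median over 6739 genes was 0.001. The smallest p-values were those of Dusp26, a phosphatase expressed in neurons, at 0.32 (standard error 0.29), and Dusp11, which acts on RNA, at 0.32 (standard error 0.30). Of the MAP kinases 5 of 12 were kept, from -0.23 to 0.24, among them the JNK gene Mapk8 at -0.23 (standard error 0.34) and the p38 gene Mapk14 at -0.17 (standard error 0.27). Signals of Mapk14 were 1382, 1743 and 1071 after the light pulse and 1494, 1605 and 1523 after the sham light pulse, with the groups overlapping.

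Among the 5 MAP kinase kinases kept, of 7 listed, the median log2 fold change was 0.06. Map2k3, an activator of p38, had signals of 151.6, 133.2 and 298.2 after the light pulse and 70.5, 82.9 and 121.0 after the sham light pulse. These groups did not overlap upward, as for 6.68% of all probe sets. The log2 fold change of 1.03 (standard error 0.57, adjusted p = 0.960) did not pass. The other named kinase of this list, Map2k5, had 0.13 (standard error 0.32). Among 6 kept kinases and factors downstream of ERK, of 12 listed, 5 lay above 0, with a median of 0.42. Srf, the serum response factor, had 640.6, 755.9 and 772.8 after the light pulse and 421.6, 462.3 and 600.6 after the sham light pulse. All light pulse values were the higher ones, as for 6.68% of all probe sets. The log2 fold change of Srf was 0.56 (standard error 0.29, adjusted p = 0.960), which did not pass. Mknk1, a kinase that ERK and p38 activate, had 0.70 (standard error 0.61).

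Other inhibitors of the pathway were read on the same arrays. Spry2, a Sprouty protein that dampens Ras signaling upstream of ERK, had 392.5, 364.4 and 626.8 after the light pulse and 227.3, 265.6 and 291.8 after the sham light pulse. The groups did not overlap upward, as for 6.68% of all probe sets. Its log2 fold change of 0.78 (standard error 0.34) had an unadjusted p of 0.0389, which did not pass after adjustment (adjusted p = 0.960 from limma). It was the only gene of these lists past an unadjusted p of 0.05, in a list of 10 feedback inhibitors of which 6 were kept, with a median of 0.13. Over all kept genes 2.11% were higher and 2.03% lower at that level. Rasa1, a GTPase-activating protein for Ras, had -0.27 (standard error 0.34). Of 7 other phosphatases that act on MAP kinases 6 were kept, with a median of -0.19, and those with the smallest p were the tyrosine phosphatases Ptprr at -0.57 (standard error 0.45) and Ptpn5 at -0.52 (standard error 0.53).

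**Figure D4:**
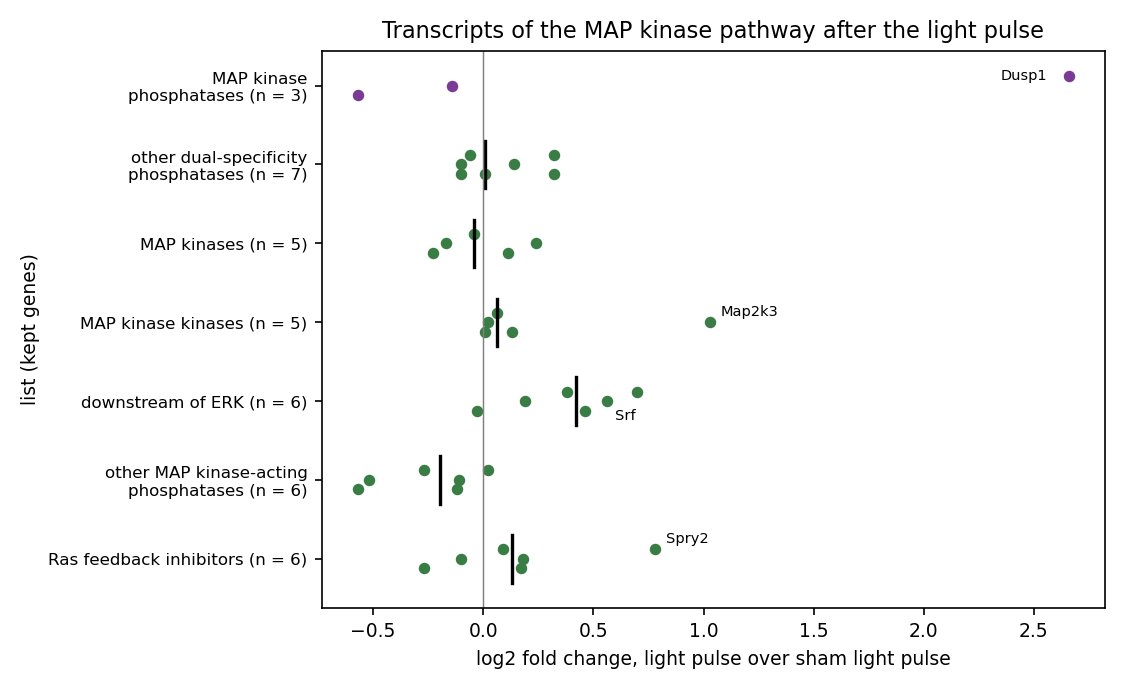
Log2 fold changes, light pulse over sham light pulse, of the kept genes of each list, 1 point per gene, with n genes per list on the y axis; black bars are the medians of the 6 pathway lists. Dusp1 at 2.66 stands right of every gene of the pathway lists, the highest of which is Map2k3 at 1.03.

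The genes whose pattern was most like that of Dusp1 were sought by centring each gene's log2 signals on its own mean over the 6 arrays and taking the mean absolute difference from Dusp1. Over 6738 genes the median of this difference was 1.35. The nearest were Klf4, a zinc-finger transcription factor, at 0.42, Tprn, the gene of taperin, at 0.44, Smagp, a membrane protein gene, at 0.45, Fam131a at 0.48 and Gtf2h1, a subunit of the transcription factor TFIIH, at 0.53. Klf4 had signals of 782.1, 469.3 and 728.0 after the light pulse and 154.5, 271.8 and 148.3 after the sham light pulse, with sham light pulse replicate 2 the highest of its group, as for Dusp1. Higher light pulse values in these 5 genes follow from the way they were chosen and are no result of their own. The choice, made over all 6 arrays, also favored a sham pattern like that of Dusp1, as in Klf4. Tprn, Smagp and Gtf2h1 passed the filter through their light pulse arrays alone, with every sham light pulse signal below 118.2.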

How the data were processed

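RNA from laser-captured SCN was measured on Affymetrix Mouse 430A 2.0 arrays, 3 light pulse and 3 sham light pulse. The deposited values are signal intensities on a linear scale, which the authors computed per probe set by MAS5 5.0; present calls were not used here. Groups came from the sample titles. The members and gene lists were chosen with earlier results of these data known.

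Log2 signals with no offset were compared with limma 3.58.1 in R 4.3.3 (lmFit, eBayes with intensity trend, two-sided, Benjamini-Hochberg, threshold 0.05) over as many probe sets as the study kept by present calls, those ranking highest by their third-highest signal; members below it were taken from a fit of all 22626. Cyber-T, the test in the study's methods, was recoded as an alternative. A gene with several probe sets was represented by its probe set of highest mean log2 signal. Genes were named from the platform annotation (20380 probe sets with 1 symbol, 691 with several, 1555 with none); 0 member symbols changed against RefSeq. Named genes were the members, the called genes of each list or else the 2 with the smallest p, Mapk8 and Mapk14, and the 5 genes nearest to Dusp1. The CATAAAA element, which the study reports for the mouse Dusp1 promoter, was added after the motif list had been set. Differences between members were tested with SciPy 1.17.1. The limma and Cyber-T fits over the kept probe sets were tested on simulated data. Alternatives were the filter, scaling (quantile, common 75th percentile), an offset of 50, no trend, Cyber-T, a replicate block, 1 probe set per gene and leaving out each array. No depth exists for arrays; their number limits the precision. Protein sequences were not used here.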

Additional observations from a re-analysis of the deposited data

How the results depend on the processing

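The Dusp1 rise kept its direction in all 15 alternatives and its call in 14. Without the intensity trend the log2 fold change was 2.66 with an adjusted p of 0.215, and 0 members were called in place of 1; the cause was not tested. With Cyber-T the adjusted p was 0.00016. The count of members called lower was 0 in every setting. With single arrays left out, Dusp1 ran from 2.41 to 3.05.

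Members that were not called changed sign in some settings. With an offset of 50, Dusp10 had 0.04 and Dusp2, which kept its sign, had 0.64 in place of 1.59. With single arrays left out, Dusp7 ran from -0.56 to 0.15, Dusp8 from -0.40 to 0.17, Dusp9 from -1.09 to 0.23, Dusp10 from -0.75 to 0.85 and Dusp14 from -0.62 to 0.90, each at its probe set of highest mean. The difference between the changes of Dusp1 and Dusp2 ran from -0.29 to 2.07, and the differences from the other 7 members stayed above 0 in every setting run.

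Replicate numbers were not treated as pairs. Deviations from the group means correlated at 0.0958, -0.192 and -0.129 for numbers 1, 2 and 3, and 1 of 3 light pulse arrays correlated best with its own number. With the replicate block Dusp1 had an adjusted p of 0.0152 and 6 probe sets were called in place of 7; the block changed no call of a member. The level of a probe set over the floor of the arrays limits what can be said of the 6 members below the filter.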

Other observations

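Fos, Egr1, Nr4a1 and Pim3 were the other genes called on these arrays with every sham light pulse signal above 118.2. None of them shared the order of the sham light pulse pools seen for Dusp1. Dusp1 was highest on sham light pulse replicate 2, at 759.9 against 314.1 and 361.5. Fos had 297.6 on that array against 667.7 and 370.0, and Nr4a1 had 141.8 against 210.5 and 247.0. Egr1 had 369.4 there against 376.2 and 732.7, and Pim3 had 4068 against 3907 and 4311. Among all 7 probe sets called, 2 were highest on sham light pulse replicate 2, those of Dusp1 and Egr2, where 34.8% of the kept probe sets were. Egr2 had 94.3 there against 32.2 and 3.1, all below 118.2. With 3 arrays these values are a description.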
